A study of Mus musculus with 72 samples.

Results

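The liver of male mice born to freely fed dams was compared after a high fat diet and after a control diet. The comparison holds 12 of the 72 libraries of the series, which are the 6 livers labelled FED-HFD and the 6 livers labelled FED-CTRL, and it was described across all genes. Both groups were FVB.129P2 mice whose dams ate ad libitum (FED), and from 8 weeks of age their food held 10% fat in the CTRL group and 45% fat in the HFD group. The sequenced mice were on the diet for 10 weeks. RNA was taken from the left lateral lobe, and each library is 1 mouse. Pups of each dam were divided between the diets, but the litter of a mouse is not given, so mice of a litter could not be treated as related. The labels give eWAT (epididymal white adipose tissue) libraries of the same 12 mice, and 12 further livers from offspring of dams restricted to 20% less food from late gestation to weaning (CR20), which ate the same diets. These were used only for comparison.

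The liver turns surplus carbohydrate into fatty acids by a chain of enzymes that make cytosolic acetyl-CoA and NADPH, build palmitate, and then elongate and desaturate it. The transcription factors SREBP-1c and ChREBP are known to drive these genes in response to insulin and glucose, and dietary polyunsaturated fat is known to lower many of them. Stearoyl-CoA desaturase-1, encoded by Scd1, places the double bond that turns stearate into oleate and is among the most abundant of these transcripts in fed mice.

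Total counts ranged from 12889761 to 19144967 in FED-CTRL and from 9842813 to 17254678 in FED-HFD (two-sided exact permutation test, p = 0.0736). A count of 0 allows a level of up to 0.157 to 0.305 CPM (counts scaled to library size), which is 3 counts of the library and covers counting error only. Hepatocyte markers were high in all 12 FED livers, with albumin at 4.55% to 8.10% of the counts. Of 10 pancreatic markers, Cela2a had a mean of 0.933 CPM in FED-CTRL and 0.679 CPM in FED-HFD, and the other 9 were at 0.0242 CPM or less. Of 6 skeletal muscle markers, Mylpf had a mean of 0.838 CPM in FED-CTRL and 1.41 CPM in FED-HFD (log2FC 0.73, edgeR adjusted p = 0.511, unadjusted 0.00926), and the other 5 were at 0.162 CPM or less. In turn, the adipocyte markers Adipoq, Plin1, Lep and Retn were at 0.130 CPM or less in both. They belong to a list of 10 that summed to 4625 to 6910 CPM in FED-CTRL and 4949 to 7513 CPM in FED-HFD. Its 4 tested members all lay above 0 (median log2FC 0.36), and none passed in edgeR. Among these, the medians in FED-CTRL and FED-HFD were 16.9 and 18.2 CPM for Lipe, 2.91 and 4.52 CPM for Pparg and 2.54 and 3.14 CPM for Adrb3. Of the 24 liver libraries, 6 stood apart on the first principal component, which carried 42.6% of the variance of log2 CPM. They were FED-CTRL mice 14 and 41, FED-HFD mouse 11 and 3 CR20 mice, and they had at most 4.15% of their counts on mitochondrial genes, against at least 4.75% in the other libraries. Scores on this component were compared between FED-HFD and FED-CTRL (exact permutation p = 0.961).

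Of 13787 genes tested by edgeR's quasi-likelihood test, 15 passed at an adjusted p under 0.055 (0.109% of those tested). Of these, 4 rose (0.029%) and 11 fell (0.0798%) in FED-HFD vs FED-CTRL. The log2 fold change (log2FC) was 1 or more in size for 13 of them (0.0943% of genes tested). The mice of the diets were fully separate for 13 of the 15 genes, beside 0.791% of all genes. The 15 were picked on these same values, so such separation follows largely from the choice. At an unadjusted p under 0.05, 450 genes were higher and 468 were lower (6.66% together). Scd1 and Me1 of fatty acid synthesis and the fatty acid carrier Fabp5 were among those that fell, and the imprinted long noncoding RNA Meg3 had the largest log2FC of those that rose. Limma voom with quality weights, the test of the study, gave 31 higher and 31 lower genes, and DESeq2 gave 22 and 33. These counts set no fold limit. The study also asked for a log2FC above 1 in size and reported 2 genes upregulated and 10 downregulated. Of the 15 genes, DESeq2 passed all, and voom with quality weights passed 10, without Gm6166, Pnpla5, Adgrf1, Meg3 and Gask1a. When the 6 libraries that stood apart were left out, 3 higher and 1 lower genes passed, and 2 of the 15 (Scd1 and Eif4e3) were among them. The other 13 kept their direction in that fit, with adjusted p-values up to 0.198 in edgeR. Leaving out single mice gave 7 genes without FED-CTRL mouse 14, 9 without FED-CTRL mouse 41, 6 without FED-HFD mouse 11, 6 without FED-HFD mouse 12, 4 without FED-HFD mouse 23 and 29 without FED-HFD mouse 10. Scd1, Fabp5, Me1 and Gm6166 passed in all 12 fits that left out a mouse.

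**Figure D1:**
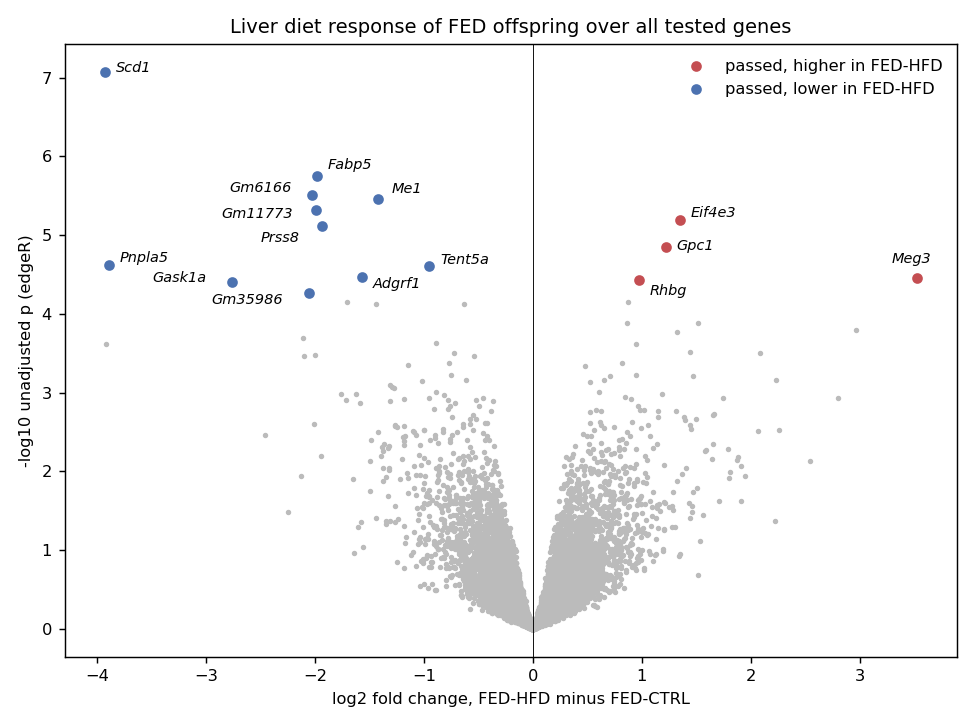
Liver log2FC of FED-HFD vs FED-CTRL on the x axis against the -log10 of the unadjusted p-value of edgeR on the y axis, one point per tested gene (13787 genes). The 4 genes that rose and the 11 that fell are coloured and named, with Scd1 at the top left (log2FC -3.93) and Meg3 at the far right (log2FC 3.53).

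Scd1 fell with the smallest p of all genes tested. Its level in FED-CTRL livers was 3326 CPM in the lowest, 6090 in the median and 8632 in the highest mouse, and in FED-HFD livers it was 79.2, 355 and 1031 CPM. The highest FED-HFD mouse therefore stayed below the lowest FED-CTRL mouse. The log2FC was -3.93 ± 0.52 (SE, n = 6 per group), a 15.2-fold lower level (edgeR adjusted p = 0.00117; exact permutation p = 0.00216, the smallest that 12 mice allow). Scd1 lies on chr19:44382894-44399154 (GRCm39, minus strand), and its mean level per kilobase of exon fell from 850 to 55.9 CPM. The related desaturase Scd2 did not pass, at a median of 5.10 CPM in FED-CTRL and 4.88 CPM in FED-HFD (log2FC -0.17 ± 0.22, edgeR adjusted p = 0.9999), and Scd3 and Scd4 were below the filter on low counts.

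Me1, the cytosolic malic enzyme that supplies NADPH for fatty acid synthesis (chr9:86462646-86578104, minus strand), also fell. FED-CTRL livers had 139, 211 and 271 CPM of Me1 (lowest, median and highest) and FED-HFD livers 40.0, 69.6 and 126 CPM, without overlap. Its log2FC was -1.43 ± 0.24 (edgeR adjusted p = 0.0119). Pnpla5, a lipase of the patatin-like family that acts on triglyceride of lipid droplets (chr15:83996557-84007376, minus strand), was near the detection limit in FED-HFD. Its counts were 5 to 35 per FED-CTRL mouse (123 in all) and 0 to 3 per FED-HFD mouse (6 in all), and 3 of the FED-HFD libraries had none. After scaling the summed counts by the summed library sizes, the ratio of FED-CTRL to FED-HFD was 16.4 (95% exact interval for counting error, 7.30 to 45.4), and the log2FC of the fit was -3.89 ± 0.75 (edgeR adjusted p = 0.0336). Pnpla5 kept its call without FED-CTRL mouse 15, 16 or 24 or FED-HFD mouse 10, and lost it in the other 8 fits that left out a mouse (highest adjusted p in edgeR, 0.113).

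The windows upstream of the start sites are shown for Me1 and Pnpla5, which fell, and for Elovl6, whose window lies within a noncoding RNA that fell. The sequences are from RefSeq (table of build GRCm38.p6) and were placed by exact match in GRCm39. They run 5′ to 3′ on the strand of the gene, end before the annotated span of the gene, and carry CCAAT on either strand in capitals.
Me1 (chr9:86578105-86578217, minus strand): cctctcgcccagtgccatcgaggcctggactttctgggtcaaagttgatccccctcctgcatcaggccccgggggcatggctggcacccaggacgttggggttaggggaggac
Pnpla5 (chr15:84007377-84007626, minus strand): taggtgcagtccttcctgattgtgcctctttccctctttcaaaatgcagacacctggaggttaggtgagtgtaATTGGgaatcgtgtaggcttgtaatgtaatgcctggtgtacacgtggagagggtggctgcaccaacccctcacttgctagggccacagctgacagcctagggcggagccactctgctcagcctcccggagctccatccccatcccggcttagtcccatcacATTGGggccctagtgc
Elovl6 (chr3:129325785-129326003, plus strand): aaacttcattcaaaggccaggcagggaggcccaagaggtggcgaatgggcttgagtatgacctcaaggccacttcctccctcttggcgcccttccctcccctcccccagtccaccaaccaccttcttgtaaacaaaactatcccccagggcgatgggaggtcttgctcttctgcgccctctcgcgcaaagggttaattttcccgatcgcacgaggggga
The Pnpla5 window holds CCAAT 2 times, both on the opposite strand. Of Me1 the table holds 2 start sites, and the window of the second, not printed, holds CCAAT 1 time, 208 to 204 bases before that start on the opposite strand. CCAAT on either strand was found in 37.4% of the 32851 RefSeq windows of 300 bases (250 before and 50 after a start), and the sterol regulatory element core TCACNCCAC in 1.24%. The core was not found in the windows of Me1, Pnpla5, Fasn, Elovl6, Pklr, Pnpla3, Acly or Acaca. The Fasn window holds CCAAT 3 times, of which a pair on opposite strands overlaps. Scd1 and Fabp5 were not matched in the table.

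**Figure D2:**
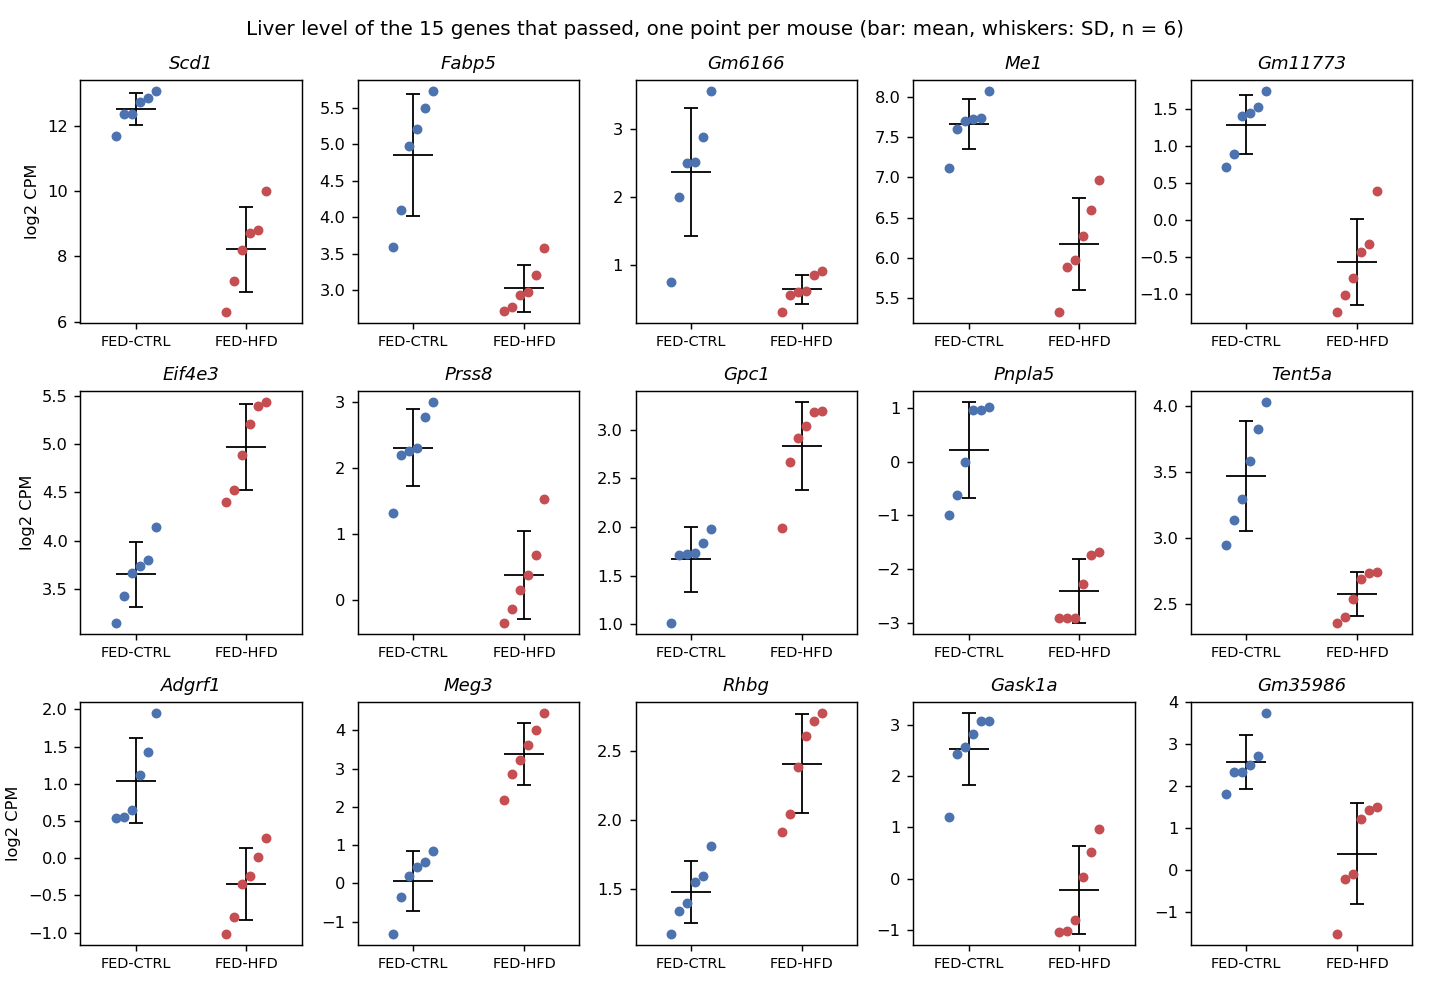
Liver log2 CPM (y axis) of each of the 15 genes that passed in FED-CTRL and FED-HFD mice (x axis), with 1 point per mouse, a bar at the mean and whiskers of 1 SD (n = 6). The points of the groups overlap for Gm6166 and Prss8 and are separate for the other 13 genes.

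The list of fatty acid synthesis genes held 35 members, of which 33 were tested, and their median log2FC was -0.78, against -0.001 over all tested genes. Of these members 3 passed in edgeR, all lower (Scd1, Me1 and Pnpla5), 29 lay below 0, and 20 had an unadjusted p under 0.05, all of them lower. That is 60.6% of the members, against 6.66% of all tested genes in either direction, and the shares given for the lists that follow are to be read against the latter. Limma voom with quality weights passed 11 members (Acly, Acaca, Acacb, Fasn, Me1, Scd1, Elovl5, Elovl6, Srebf1, Thrsp and Pklr) and DESeq2 8 (Acacb, Me1, Scd1, Elovl6, Srebf1, Pnpla3, Pnpla5 and Pklr), all lower in both, and edgeR without the 6 libraries that stood apart passed Scd1 alone.

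Most members named from here on did not pass, and several were picked after their values were seen. Pklr, the liver pyruvate kinase that feeds glucose carbon towards acetyl-CoA, was just outside the limit, at 293, 357 and 413 CPM in FED-CTRL and 64.1, 106 and 238 CPM in FED-HFD, without overlap (log2FC -1.44 ± 0.30, edgeR adjusted p = 0.0551). Acly, which makes cytosolic acetyl-CoA, had a log2FC of -1.42 ± 0.43, and Acaca and Acacb, the acetyl-CoA carboxylases, -1.27 ± 0.38 and -2.10 ± 0.51. These 3 did not pass in edgeR, whereas all 3 passed in limma voom with quality weights and Acacb in DESeq2. Fasn, the fatty acid synthase, ranged from 1015 to 2843 CPM in FED-CTRL and from 80.7 to 1375 CPM in FED-HFD, so the groups overlapped (log2FC -1.95 ± 0.65, edgeR adjusted p = 0.461).

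Among the elongases, Elovl6, which extends palmitate to stearate, ranged from 117 to 231 CPM in FED-CTRL and from 15.6 to 120 CPM in FED-HFD (edgeR adjusted p = 0.143), and Elovl5 had a log2FC of -0.89 ± 0.24. Pnpla3, a lipid droplet protein, ranged from 2.92 to 15.3 CPM in FED-CTRL and from 0 to 1.16 CPM in FED-HFD (log2FC -3.92 ± 0.91, edgeR adjusted p = 0.124). Srebf1, which encodes SREBP-1, ranged from 466 to 655 CPM in FED-CTRL and from 123 to 320 CPM in FED-HFD, also without overlap (log2FC -1.27 ± 0.34, edgeR adjusted p = 0.242). In contrast, Mlxipl, which encodes ChREBP, had a log2FC of -0.29 ± 0.43, with overlapping groups.

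The FED-HFD mice differed among themselves in these genes. The median deviation of the 33 members from the FED-CTRL mean was -0.20 on the log2 scale in mouse 10, -0.51 in mouse 13, and -0.80, -0.83, -0.93 and -1.28 in mice 11, 23, 12 and 40. Mouse 10 had the highest level of the 6 FED-HFD mice for 21 of the 33 members, against 2336 of the 13787 tested genes. Its Fasn level of 1375 CPM lay within the FED-CTRL range, while its Scd1 level of 1031 CPM was below all FED-CTRL mice. Among the FED-CTRL mice the median deviation ran from -0.27 (mouse 15) to 0.18 (mouse 42). Without mouse 10, Acly, Acaca, Acacb, Elovl6, Pklr and Slc2a4 each passed in edgeR (adjusted p = 0.0254, 0.0425, 0.00368, 0.0182, 0.0182 and 0.0182). Mouse 10 was singled out by its values of such genes, so these calls add no support. Of the 12 fits that left out a mouse, Pklr passed in 2 and each of the others in 1.

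**Figure D3:**
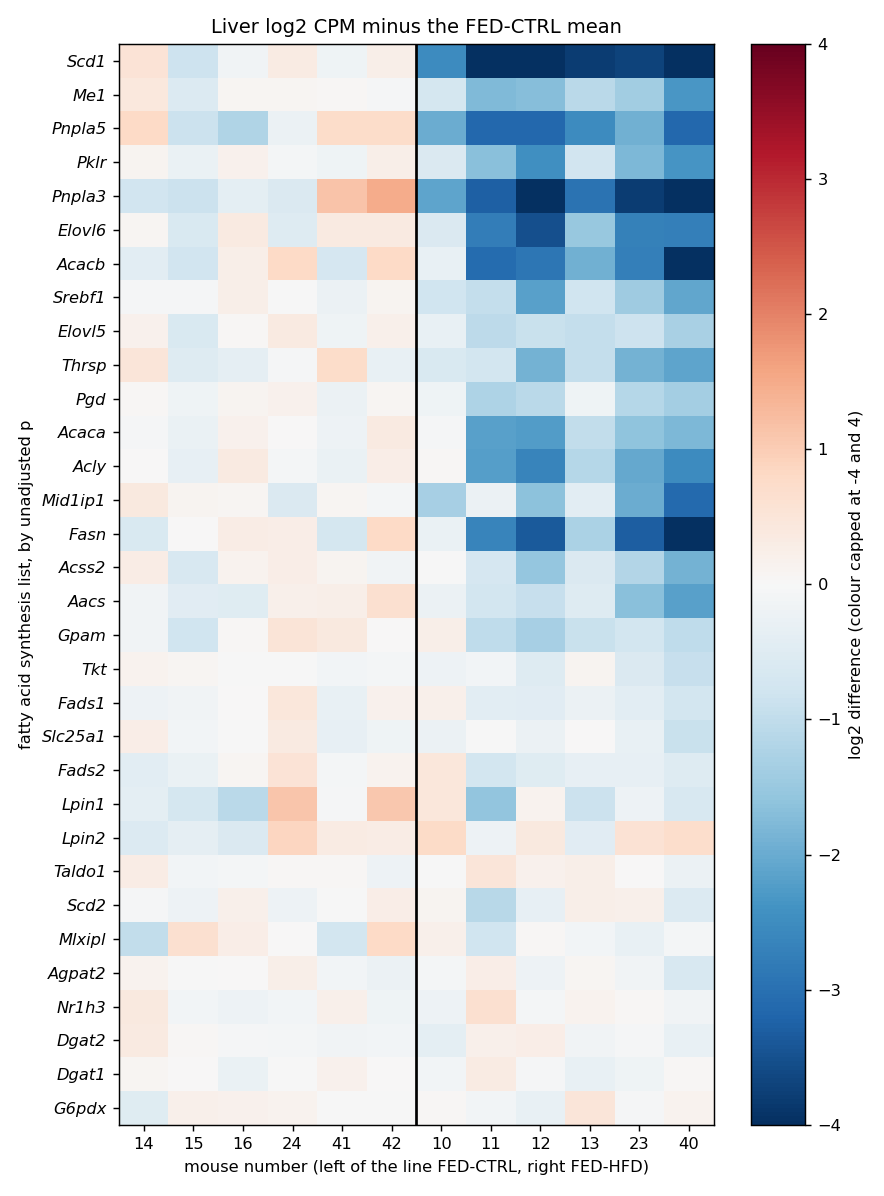
Log2 CPM of 32 of the 33 tested fatty acid synthesis genes (rows, ordered by unadjusted p) in each FED mouse (columns, FED-CTRL left and FED-HFD right of the line), as the difference from the FED-CTRL mean, with the colour capped at -4 and 4. The differences beyond -4 are those of Scd1 in FED-HFD mice 11, 12 and 40, Pnpla3 in mice 12 and 40 and Fasn in mouse 40, and the column of FED-HFD mouse 10 is paler.

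Fabp5, a fatty acid binding protein that carries long chain fatty acids within the cell (chr3:10077602-10081674, plus strand), fell beside these enzymes. It ranged from 11.9 to 53.2 CPM in FED-CTRL (median 34.2) and from 6.42 to 11.8 CPM in FED-HFD (median 7.63), so that the highest FED-HFD mouse lay just below the lowest FED-CTRL mouse. Its log2FC was -1.98 ± 0.32 (edgeR adjusted p = 0.0119). Gm6166 fell by almost the same amount (log2FC -2.03 ± 0.34, edgeR adjusted p = 0.0119), from a median of 5.56 to one of 1.39 CPM, with overlapping groups. Gm6166 is annotated as a processed pseudogene of 409 bases on chr9:57391246-57391654 (GRCm39, plus strand), and 402 of 409 aligned positions (98.3%) were identical to the Fabp5 transcript. Of its 360 windows of 50 bases, 184 (51.1%) occur unchanged in Fabp5 transcripts. Reads of Fabp5 could thus be counted for Gm6166, and the change of Gm6166 is uncertain as that of a separate gene. Fabp5 was the one of 27 tested genes of lipid droplets and fatty acid uptake that passed. In that list Fitm1, Plin2, Cidec and Cd36 had a log2FC of 0.67 ± 0.22, 0.32 ± 0.19, 0.45 ± 0.21 and 0.51 ± 0.35, and none of these passed (edgeR adjusted p = 0.426 to 0.952).

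A pair of long noncoding RNAs that fell lies beside fatty acid synthesis genes. Gm11773 (chr11:120721832-120725074, plus strand) begins 5836 bases from the start of Fasn (chr11:120696672-120715995, minus strand), which is transcribed away from it, and it lies within the span of Ccdc57 on the other strand. Gm11773 had 1.51, 2.55 and 3.22 CPM in FED-CTRL and 0.290, 0.527 and 1.18 CPM in FED-HFD (lowest, median and highest), without overlap (log2FC -1.99 ± 0.34, edgeR adjusted p = 0.0134). Gm35986 (chr3:129321082-129326037, minus strand) shares 34 bases at its start with Elovl6 (chr3:129326004-129432144, plus strand), so that Gm35986 runs into and through the Elovl6 window printed above, which lies within its span. Gm35986 had 3.39, 5.24 and 13.2 CPM in FED-CTRL and 0.218, 1.51 and 2.70 CPM in FED-HFD, again without overlap (log2FC -2.06 ± 0.42, edgeR adjusted p = 0.0497). The strand setting of the counting is not given, so counts in the shared bases cannot be assigned to one of the pair. The call of Gm35986 was kept without FED-CTRL mouse 24 or FED-HFD mouse 10 and lost in the other 10 fits that left out a mouse (adjusted p up to 0.197), and that of Gm11773 was lost without FED-HFD mouse 12 or 23 (adjusted p up to 0.0564).

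A further 4 protein coding genes fell. Gask1a, a Golgi associated kinase, had 2.15, 6.32 and 8.30 CPM in FED-CTRL and 0.357, 0.664 and 1.82 CPM in FED-HFD (log2FC -2.76 ± 0.55, edgeR adjusted p = 0.0385). Prss8, the membrane serine protease prostasin, had 2.35, 4.72 and 7.86 CPM in FED-CTRL and 0.654, 1.07 and 2.76 CPM in FED-HFD (log2FC -1.94 ± 0.34, edgeR adjusted p = 0.0150). The groups overlapped for Prss8, through FED-HFD mouse 10 and FED-CTRL mouse 15, and not for Gask1a. Adgrf1, an adhesion G protein-coupled receptor, went from a median of 1.74 to 0.686 CPM (log2FC -1.57 ± 0.31, edgeR adjusted p = 0.0385). Tent5a, a noncanonical poly(A) polymerase, went from a median of 10.8 to 5.99 CPM (log2FC -0.95 ± 0.18, edgeR adjusted p = 0.0336). Neither Adgrf1 nor Tent5a overlapped between the groups. Gask1a lies on chr9:121780054-121809516, plus strand, Prss8 on chr7:127524888-127529294, minus strand, Adgrf1 on chr17:43581220-43635628, plus strand and Tent5a on chr9:85202492-85209401, minus strand. On leaving out single mice, Adgrf1 kept its call without FED-CTRL mouse 15, 16 or 42 or FED-HFD mouse 10, and Tent5a without FED-CTRL mouse 24, 41 or 42 or FED-HFD mouse 10. Gask1a kept it without FED-CTRL mouse 24 or FED-HFD mouse 10, and Prss8 lost it without FED-HFD mouse 11, 12 or 23. The adjusted p-values of these lost calls reached 0.136 in edgeR.

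Meg3, a noncoding RNA that is transcribed from the maternal chromosome of the imprinted Dlk1-Dio3 region, showed the largest rise. It had 0.269, 1.12 and 1.66 CPM in FED-CTRL and 4.42, 10.7 and 21.7 CPM in FED-HFD (lowest, median and highest). Every FED-HFD mouse was above every FED-CTRL mouse, and the log2FC was 3.53 ± 0.70, an 11.5-fold higher level (edgeR adjusted p = 0.0385; exact permutation p = 0.00216). Meg3 lies on chr12:109506877-109538165 (plus strand), and Rian, the next noncoding RNA of the region, begins 32076 bases after its end on the same strand. Rian had 0.267, 0.661 and 1.09 CPM in FED-CTRL and 1.25, 3.79 and 15.3 CPM in FED-HFD, also without overlap (log2FC 2.97 ± 0.67, edgeR adjusted p = 0.102). For both RNAs FED-HFD mouse 40 was highest and mouse 13 lowest of the FED-HFD group. Dlk1, Rtl1, Mirg and Dio3 of this region were below the filter. These genes were looked up after the value of Meg3 was known. The call of Meg3 was kept without FED-HFD mouse 10 or 13 and lost in the other 10 fits that left out a mouse (adjusted p up to 0.129), with a log2FC of 3.26 to 3.73. It was also lost in limma voom with and without quality weights and without the 6 libraries that stood apart, and kept in DESeq2.

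Of the protein coding genes, 3 rose, namely Eif4e3 (chr6:99602081-99643784, minus strand), Gpc1 (chr1:92759062-92792113, plus strand) and Rhbg (chr3:88150181-88162043, minus strand). Eif4e3, a cap-binding protein of the eIF4E family, had 8.75, 12.9 and 17.5 CPM in FED-CTRL and 21.0, 33.1 and 43.2 CPM in FED-HFD (log2FC 1.35 ± 0.24, edgeR adjusted p = 0.0149). Gpc1, the cell surface heparan sulfate proteoglycan glypican-1, had 1.89, 3.18 and 3.82 CPM in FED-CTRL and 3.85, 7.77 and 9.01 CPM in FED-HFD (log2FC 1.22 ± 0.23, edgeR adjusted p = 0.0241). Rhbg, an ammonium transporter of hepatocytes around the central vein, had 2.13, 2.66 and 3.38 CPM in FED-CTRL and 3.64, 5.52 and 6.70 CPM in FED-HFD (log2FC 0.97 ± 0.19, edgeR adjusted p = 0.0385). All 3 genes were separate between the groups, although for Gpc1 the highest FED-CTRL mouse (3.82 CPM) nearly reached the lowest FED-HFD mouse (3.85 CPM). Of 10 tested pericentral genes 9 lay above 0 (median log2FC 0.35), among them Slc13a3 and Cyp1a2 at 0.94 ± 0.22 and 0.70 ± 0.26, whereas 9 of 10 periportal genes lay below 0 (median -0.15), and Rhbg was the one member of either list that passed in edgeR. Rhbg and Slc13a3 passed in limma voom with quality weights and in DESeq2. Without single mice Eif4e3 lost its call once, without FED-HFD mouse 23 (edgeR adjusted p = 0.0580), and Gpc1 lost it without FED-CTRL mouse 14 or 15 or FED-HFD mouse 11, 12 or 23 (up to 0.0859). Rhbg kept its call without FED-CTRL mouse 15 or FED-HFD mouse 10 or 40 and lost it in the other 9 fits (up to 0.129).

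Slc2a4, the insulin-regulated glucose transporter GLUT4, is named by the study for liver. The study reported Slc2a4 and Scd1 as significantly lower in both HFD groups, by RNA-seq and by qPCR. Here Slc2a4 had 7.65, 14.8 and 28.8 CPM in FED-CTRL and 0.58, 2.80 and 9.99 CPM in FED-HFD. The groups overlapped through FED-HFD mouse 10 and FED-CTRL mouse 24. Its log2FC was -2.11 ± 0.48 and did not pass in edgeR (adjusted p = 0.115; exact permutation p = 0.00433), while it passed in limma voom with quality weights and in DESeq2. Of the 32 tested genes of glucose metabolism and insulin signalling none passed in edgeR, and 8 were lower and 0 higher at an unadjusted p under 0.05 (25%, median log2FC -0.26). Pklr and Slc2a4 of this list passed in limma voom with quality weights, and Pklr, Slc2a4 and Pygl in DESeq2. Pygl, the liver glycogen phosphorylase, was among the 8, from 363 to 473 CPM in FED-CTRL and 240 to 349 CPM in FED-HFD without overlap (log2FC -0.46 ± 0.12, edgeR adjusted p = 0.264).

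In cholesterol synthesis, 0 of 28 tested genes passed in edgeR, limma voom with quality weights or DESeq2, 27 lay below 0 and 9 had an unadjusted p under 0.05 in edgeR, all lower (32.1%, median log2FC -0.41). Stard4 and Fdps had a log2FC of -0.72 ± 0.20 and -1.04 ± 0.33. Without FED-HFD mouse 10 the number of these genes at an unadjusted p under 0.05 was 15, and without FED-CTRL mouse 24 it was 5. In fatty acid oxidation and PPARα targets, 0 of 40 passed in these 3 tools, with 6 higher and 1 lower at an unadjusted p under 0.05 in edgeR (17.5%, median 0.20). Pex11a, a peroxisomal membrane protein, ranged from 103 to 122 CPM in FED-CTRL and from 126 to 325 CPM in FED-HFD without overlap (log2FC 0.90 ± 0.25, edgeR adjusted p = 0.264), and Cpt1a, which controls entry of fatty acids into mitochondria, had a log2FC of 0.22 ± 0.20.

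Among genes of xenobiotic and bile acid handling, Nr1i3, the nuclear receptor CAR, had 52.8, 66.7 and 88.0 CPM in FED-CTRL and 91.7, 131 and 159 CPM in FED-HFD, without overlap, and lay just outside the limit (log2FC 0.88 ± 0.18, edgeR adjusted p = 0.0551). Its targets Cyp2c37 and Cyp2a5 (adjusted p in edgeR 0.0868 and 0.103) lay 0.87 ± 0.19 and 1.33 ± 0.30 above FED-CTRL on the log2 scale. Both belong to P450 families with near-identical copies, which makes their counts uncertain. Of the 39 tested xenobiotic genes 0 passed in edgeR, and 7 were higher and 2 lower at an unadjusted p under 0.05 (23.1%). Nr1i3, Cyp2a5 and Cyp2c37 passed as higher in limma voom with quality weights and in DESeq2. Cyp3a11 passed in the former alone, and it was lower. Abcc3, a basolateral bile acid exporter, ranged from 85.0 to 161 CPM in FED-CTRL and from 181 to 291 CPM in FED-HFD (log2FC 0.82 ± 0.20, edgeR adjusted p = 0.166). Slc10a1, the main bile acid importer, ranged from 742 to 964 and from 529 to 699 CPM (log2FC -0.49 ± 0.14, edgeR adjusted p = 0.287). Neither transporter overlapped between the groups. In edgeR 0 of the 28 tested bile acid genes passed, while Abcc3 and Slc10a1 passed in limma voom with quality weights and Abcc3 in DESeq2.

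Genes of antigen presentation and of the response to interferon lay mostly above 0. None passed in edgeR or DESeq2, whereas H2-Ab1, H2-DMa, Cd74 and Ubd passed in limma voom with quality weights. All 8 tested MHC class II genes were above 0 with an unadjusted p under 0.05 (median log2FC 1.16). For H2-Ab1 and the invariant chain Cd74 the log2FC came to 1.32 ± 0.37 and 1.39 ± 0.40 (edgeR adjusted p = 0.295 and 0.324), and both overlapped between the groups. The summed level of all 8 was 730 to 1517 CPM in FED-CTRL and 1430 to 4095 CPM in FED-HFD. These genes are transcribed by antigen presenting cells, and in whole liver more such cells and more RNA per cell cannot be told apart. The Kupffer cell and macrophage markers summed to 628 to 829 CPM in FED-CTRL and 670 to 1002 CPM in FED-HFD, with Marco at a log2FC of 0.86 ± 0.31 and Cd163 at -1.33 ± 0.43. Lymphocyte markers summed to 20.7 to 26.7 and 25.1 to 41.0 CPM, and 0 of 14 macrophage and 0 of 13 lymphocyte markers passed in edgeR. The part of these cells in the MHC class II values was not tested.

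Of 39 tested interferon genes, 36 lay above 0 and 13 had an unadjusted p under 0.05, all higher (33.3%, median 0.59). FED-HFD mouse 40 had the highest level of its group for 34 of the 39, against 2406 of all 13787 tested genes. The median deviation of the list from the FED-CTRL mean was 1.63 in this mouse and -0.72 in FED-HFD mouse 11, and the FED-CTRL mice ran from -0.70 to 0.54. Ubd ranged from 3.04 to 18.1 CPM in FED-CTRL and from 12.5 to 128 CPM in FED-HFD (log2FC 2.26 ± 0.69, edgeR adjusted p = 0.350). Gbp2 ranged from 10.8 to 57.0 and from 9.43 to 399 CPM (log2FC 1.87 ± 0.64), so the groups overlapped widely for Gbp2. The NRF2 targets gave 8 higher and 0 lower of 22 at an unadjusted p under 0.05 (36.4%), and the acute phase list 7 and 0 of 25 (28%), with 0 passing in edgeR. FED-HFD mouse 13 was highest of its group for 15 of the 22 NRF2 targets, against 1321 of all 13787 tested genes. Of the 25 acute phase genes, mouse 13 was highest for 12 and mouse 40 for 10. The median deviation of the acute phase list was -0.015, 0.028 and 0.019 in FED-HFD mice 10, 11 and 12. In FED-CTRL mice it ran from -0.27 to 0.34. Of the acute phase list Saa4 and Hp passed in limma voom with quality weights, and Saa4, Hp and Mt1 in DESeq2. Hp, the haptoglobin gene, ranged from 2649 to 4717 CPM in FED-CTRL and from 4494 to 7353 CPM in FED-HFD (log2FC 0.71 ± 0.18, edgeR adjusted p = 0.209), and it passed in edgeR without the 6 libraries that stood apart.

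Markers of endothelial and stellate cells lay mostly below 0. All 12 endothelial markers were below 0 (median -0.26), 3 with an unadjusted p under 0.05 (25%). Of 27 stellate cell and matrix genes, 24 were below 0 (median -0.36), 4 with an unadjusted p under 0.05 (14.8%). None of either list passed in edgeR or DESeq2, and Lrat passed in limma voom with quality weights. Lrat, which stores retinol as esters in stellate cells, ranged from 14.3 to 19.1 CPM in FED-CTRL and from 9.09 to 12.6 CPM in FED-HFD without overlap (log2FC -0.55 ± 0.17, edgeR adjusted p = 0.350). The summed endothelial level was 176 to 346 CPM in FED-CTRL and 125 to 288 CPM in FED-HFD. The median deviation of these markers was lowest in FED-CTRL mouse 41 (-0.72) and FED-HFD mouse 40 (-1.17). Respiratory chain genes gave no member that passed in edgeR or had an unadjusted p under 0.05, although 78 of 93 lay above 0 (median 0.14).

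**Figure D4:**
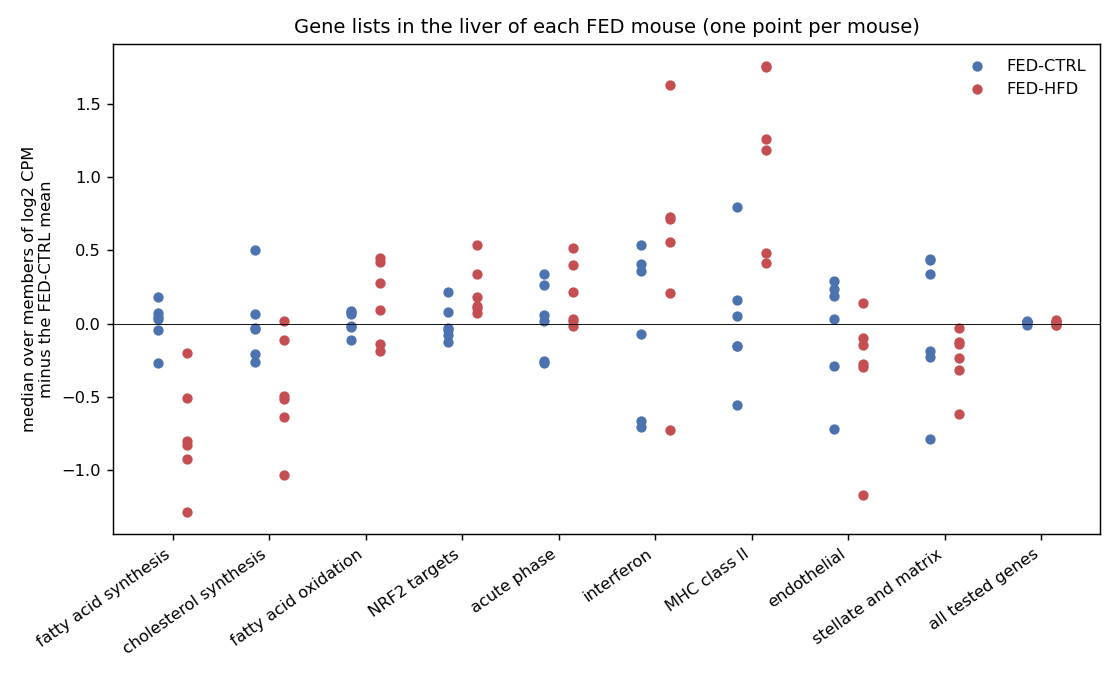
Median over the members of a gene list of log2 CPM minus the FED-CTRL mean (y axis) for 10 sets of genes (x axis), one point per mouse, with FED-CTRL in blue and FED-HFD in red. Fatty acid synthesis genes lie lowest in FED-HFD (-1.28 to -0.20), MHC class II genes lie at 0.41 to 1.76, and all tested genes lie at 0.024 or less from 0.

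The same 15 genes were read in the 12 livers of CR20 offspring, which are other mice and share no controls. All 15 had the same direction there, against 61.8% of all tested genes, and 12 of them passed in CR20-HFD vs CR20-CTRL, where 74 genes (0.537%) passed in all. These 12 are 80% of the FED genes and 16.2% of the CR20 genes. Gpc1, Adgrf1 and Rhbg did not pass (log2FC 0.63 ± 0.23, -0.30 ± 0.28 and 0.50 ± 0.19, edgeR adjusted p = 0.337, 0.709 and 0.405). Scd1 fell by 5.39 on the log2 scale in CR20 mice and by 3.93 in FED mice, and Meg3 rose by 4.01 and 3.53. Slc2a4 had a log2FC of -2.97 ± 0.51 in CR20 mice and passed there (edgeR adjusted p = 0.00416). A difference between the responses was tested as the interaction, and 0 genes passed in edgeR (smallest adjusted p = 0.9985), with 1.76% at an unadjusted p under 0.05, and 0 passed in limma voom with quality weights and in DESeq2. Among the 15 genes, Scd1, Pnpla5 and Adgrf1 had an unadjusted interaction p of 0.0369, 0.0450 and 0.00514. The smallest of all belonged to Dusp1, Tob1 and Slc25a25 (0.000854, 0.000881 and 0.00128), whose log2FC in FED mice was -0.86 ± 0.36, -0.17 ± 0.13 and -0.39 ± 0.26 and in CR20 mice 1.10 ± 0.36, 0.50 ± 0.13 and 0.94 ± 0.26.

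The liver response was also set against that of eWAT in the same 12 FED mice, to ask which of these changes differed between the tissues. In eWAT 11 of the 15 genes were tested, 7 had the same direction and 1 passed (Gm11773, log2FC -1.65 ± 0.54, edgeR adjusted p = 0.0532), beside 11.1% of all genes tested in eWAT. The difference of the responses within mice passed in limma for 167 of 12801 genes (1.3%) and for 7 of the 11. These 11 were picked on the liver values that enter the difference, so their share cannot be set against that of all genes. Scd1 had a log2FC of -0.52 ± 0.28 in eWAT, and the difference of its responses, liver minus eWAT, was -3.60 ± 0.68 on the log2 scale (limma adjusted p = 0.0189). Fabp5, Gm6166 and Gask1a, which fell in liver, had a log2FC of 0.32, 0.28 and 0.42 in eWAT, and their differences were -2.13 ± 0.31, -1.99 ± 0.34 and -3.05 ± 0.42 (limma adjusted p = 0.00639, 0.0122 and 0.00639). Meg3, Eif4e3 and Gpc1, which rose in liver, had a log2FC of 0.46, -0.27 and 0.32 in eWAT (differences 3.03 ± 0.60, 1.61 ± 0.24 and 0.86 ± 0.20, limma adjusted p = 0.0262, 0.00639 and 0.0519). For Me1, Pnpla5, Tent5a and Gm11773 the difference did not pass (-0.80, -1.73, -0.78 and -0.54). Of the fatty acid synthesis genes named above that did not pass in liver, Acaca, Fasn and Elovl6 passed as lower in eWAT (log2FC -1.50, -1.31 and -1.22). Their differences did not pass (limma adjusted p = 0.838, 0.421 and 0.249). Acly, Acacb, Elovl5, Srebf1 and Pnpla3 did not pass in eWAT, and among these the difference passed for Pnpla3 alone (-2.49). Fabp5, Gm6166, Eif4e3 and Gask1a kept the difference in all 12 fits that left out a mouse, Scd1 and Meg3 lost it without FED-CTRL mouse 42 or FED-HFD mouse 12, and Gpc1 kept it in 2 fits.

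**Figure D5:**
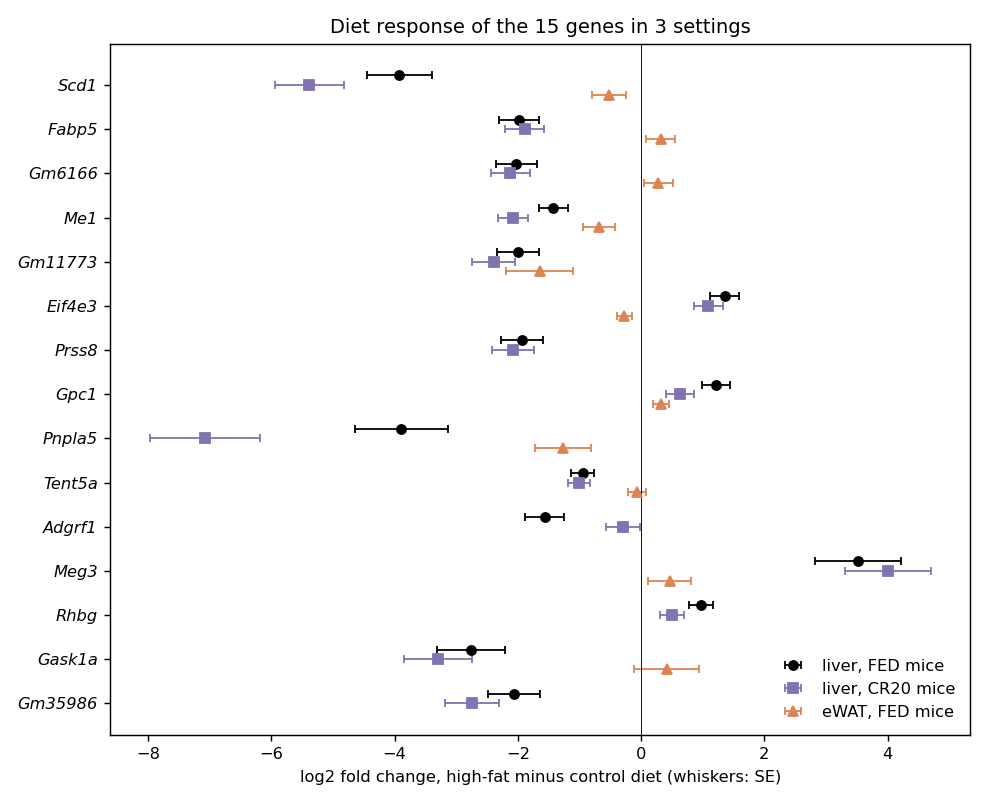
Log2FC of high fat vs control diet (x axis, whiskers of 1 SE) of the 15 genes (y axis) in liver of FED mice, liver of CR20 mice and eWAT of FED mice. The liver values of both maternal groups lie on the same side of 0 for all 15 genes, whereas the eWAT values, shown for the 11 genes tested there, lie nearer to 0 (from -1.65 to 0.46).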

How the data were processed

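Liver libraries of 12 FED and 12 CR20 mice and eWAT libraries of the same 12 FED mice were used. The deposited values are raw counts per gene, which the authors made from paired-end reads with FastQC, Trimmomatic, STAR (GRCm39) and featureCounts of Subread, with versions and strand setting not given in the sources used here. Of 55416 gene identifiers 54749 were named from the reference annotation. All 24 livers were fitted with 4 group means in edgeR 4.0.16 (R 4.3.3; TMM, filterByExpr, quasi-likelihood F-test, Benjamini-Hochberg), and a gene passed at an adjusted p under 0.055. The SE is the size of the log2FC divided by the square root of F. Levels are CPM, and log2 CPM used a prior count of 2. Single genes were also tested by a two-sided exact permutation test, without adjustment for having been picked from all tested genes. The liver response was compared with that of eWAT in limma 3.58.1 on the within-mouse difference of log2 CPM. Animal numbers in the labels identify the mouse, and deviations of its 2 tissues from their group means correlated at -0.055 to 0.286.

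Named genes were those that passed, Scd1 and Slc2a4, up to 3 members per list with the smallest p, the genes with the smallest interaction p, and defining markers. Fasn, Srebf1, Scd2, Mlxipl, Cpt1a, Cd36, Plin2, Acly, Acaca, Acacb, Elovl5, Elovl6, Pnpla3 and Rian were added after their values were seen. The genes, lists and tests were chosen with earlier results of these data known. A few list members are not reported here. Scripts were tested on simulated data. Alternatives were limma voom with and without quality weights, DESeq2 1.42.0 (tests and size factors), other filters, the 2 groups alone, animal-number range, thinning and leaving out mice. Nothing says which mice shared a litter, so p-values take mice as independent.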

Additional observations from a re-analysis of the deposited data

Results flagged for a closer look

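Within groups of 6 mice, 5 of 142 tests found a mouse far from the others by the gap to the nearest mouse as a share of the range (Dixon's test at 95%). Chance alone gives about 1 in 20 such tests. FED-CTRL mouse 15 was low for Gpc1 (0.721 of the range) and Creb3l3 (0.701), FED-CTRL mouse 24 for Gask1a (0.659), FED-CTRL mouse 41 for Oit3 (0.818) and FED-HFD mouse 10 for Cyp2a5 (0.654). Mouse 41 is among the libraries that stood apart on the first component.

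The following genes are some of those whose diet response differed in limma between liver and eWAT of the same mice. Most were named for their liver values. The liver minus the eWAT log2FC was -3.60 for Scd1, -2.13 for Fabp5, -1.99 for Gm6166 and -3.05 for Gask1a, and 3.03 for Meg3, 1.61 for Eif4e3 and 0.86 for Gpc1. Among named genes that did not pass in liver, the difference was -2.49 for Pnpla3, -2.24 for Rrm2, -1.78 for Lum, -2.29 for Pltp, -2.47 for Oit3 and 1.26 for Gsta4. For these 6 genes the liver response alone did not pass in edgeR. In eWAT, Rrm2, Lum, Pltp and Oit3 rose (log2FC 1.28, 1.02, 1.36 and 2.20) and Gsta4 fell (-0.75), and all of these passed in edgeR. Pnpla3 had a log2FC of -1.10 in eWAT and did not pass (edgeR adjusted p = 0.090).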

How the results depend on the processing

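Against 4 higher and 11 lower genes, limma voom with quality weights gave 31 and 31, voom without weights 2 and 10, DESeq2 22 and 33, and the 2 groups alone 10 and 14. Of the 15 genes, 10, 8, 15 and 10 passed in these fits. Without the 6 libraries that stood apart, an alternative chosen after seeing the data, 3 higher and 1 lower genes passed, 2 of them among the 15. Leaving out single mice gave 0 to 8 higher and 4 to 21 lower genes. DESeq2 size factors, other filters, the animal-number range, robust fitting and thinning gave 4 higher and 11 to 15 lower genes. No gene followed through these alternatives reversed, and Dusp1, Tob1 and Slc25a25 were not followed. The causes were not tested. Cholesterol synthesis members lower at an unadjusted p under 0.05 ranged from 5 to 15 on leaving out a mouse. The interaction had 0 genes in edgeR, voom with quality weights and DESeq2. For liver against eWAT, 167 genes passed in the fit paired by mouse and 145 without the replicate block, and leaving out a mouse gave 46 (FED-CTRL mouse 42) to 346 (FED-HFD mouse 40). Genes with few counts, such as Pnpla5, are limited by depth.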
